A study of Rattus norvegicus with 4 samples.

Results

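The 10 genes reported here belong to the alpha and beta tubulin families and were measured in the lumbar dorsal root ganglia (DRG) of young rats after cisplatin. They were Tuba1a, Tuba1b, Tuba1c and Tuba4a of the alpha family and Tubb2a, Tubb2b, Tubb3, Tubb4a, Tubb5 and Tubb6 of the beta family, taken as every protein-coding entry of the deposited table that carried one of these 10 names. Tuba1c was entered at 2 places in the genome, so the 10 names gave 11 entries among 22293 protein-coding genes and 33506 genes of every kind. In the DRG, sensory neurons keep their cell bodies among satellite glia, Schwann cells, fibroblasts, vessels and leukocytes. Wild-type neonatal Wistar rats received intraperitoneal cisplatin, a platinum-based chemotherapeutic, at 0.3 mg/kg on each of 2 days, or vehicle, which the labels give as PBS. RNA was sequenced from 2 libraries of vehicle-treated rats and 2 of cisplatin-treated rats, each made from several pooled ganglia. The labels place the isolation 16 days after treatment, whereas the study's text places it at postnatal day 23 (P23). By the dosing days in that text, P23 is fewer than 16 days after either dose.

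Microtubules are hollow polymers built from dimers of alpha and beta tubulin. Several genes encode each subunit, and their products differ mainly in the acidic tail that faces outward, which motor proteins and modifying enzymes read. In sensory neurons microtubules fill the long axons and carry cargo between the cell body and the terminals in skin and spinal cord. Tuba1a is the main alpha isotype of developing neurons, Tubb3 is the beta isotype used as a marker of neurons, and Tuba1b and Tubb5 are made by most cells.

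Library depth ran from 21384801 to 25618417 counts, and the 11 tubulin entries took between 0.967% and 1.39% of all counts. The edgeR filter on low counts kept 14719 protein-coding genes, all 11 tubulin entries among them. All 12 sensory neuron markers of a list were detected, and their summed level was 30729 and 23496 CPM in the vehicle-treated libraries and 38012 and 26773 CPM in the cisplatin-treated libraries. CPM here is the count relative to the library size after TMM scaling, a correction for differences in composition between libraries. Summed Schwann cell markers differed far more within each group, at 61949 and 157071 CPM against 48832 and 137659 CPM, and were higher in replicate 2 of both groups. Summed skeletal muscle markers stood at 460 CPM in vehicle replicate 1 and between 15.0 and 50.6 CPM in the other libraries. In bulk tissue fewer cells of a type and less RNA per cell cannot be told apart.

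Per unit of gene length, the 11 entries spread over more than 2 orders of magnitude. FPKM, the deposited level per length of gene and per library size, was used for this order. Tuba1a, entered at chr7:140637287-140640953 on the Rnor_6.0 build (ENSRNOG00000060728), was the highest in every library, at 2150 and 2447 FPKM in the vehicle-treated and 2430 and 2681 FPKM in the cisplatin-treated libraries. By mean FPKM it ranked 11 of the 14719 genes tested. Tubb3, at chr19:56220731-56229810 (ENSRNOG00000017209), came second among the tubulins in every library with 1102 to 1960 FPKM, and ranked 29 over all genes tested. Tuba1b, at chr7:140614752-140617721 (ENSRNOG00000053468), followed at 817 to 1249 FPKM, and then Tubb5, at chr20:3422461-3426371 (ENSRNOG00000061216), at 586 to 866 FPKM. These first 4 places were the same in all 4 libraries, although over the libraries the range of Tubb3 overlapped that of Tuba1b, and that of Tuba1b overlapped that of Tubb5.

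A middle group of 4 isotypes could not be ordered. Tubb4a (chr9:9961021-9968486, ENSRNOG00000047505), Tuba4a (chr9:82415605-82419288, ENSRNOG00000003597), Tubb2a (chr17:31493107-31498651, ENSRNOG00000017558) and Tubb2b (chr17:31441630-31482759, ENSRNOG00000017445) all lay between 166 and 290 FPKM, and their ranks changed from library to library. Tubb2a and Tubb2b, neighbours on chromosome 17 that encode very similar proteins, differed in mean by less than the spread between libraries, at 209 and 206 FPKM. Far below them were Tubb6 (chr18:63130542-63140181, ENSRNOG00000018371) at 11.1 to 21.97 FPKM, and Tuba1c at 7.29 to 12.7 FPKM for its entry on chromosome 2 (chr2:199199845-199203637, ENSRNOG00000015544) and 4.75 to 12.3 FPKM for its entry on chromosome 7 (chr7:140716113-140723714, ENSRNOG00000021438). The ranges of these 3 entries overlapped from each to the next. Tubb4b, a broadly made beta tubulin outside the 10 names, lay between Tubb5 and the middle group at 415 to 623 FPKM.

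**Figure D1:**
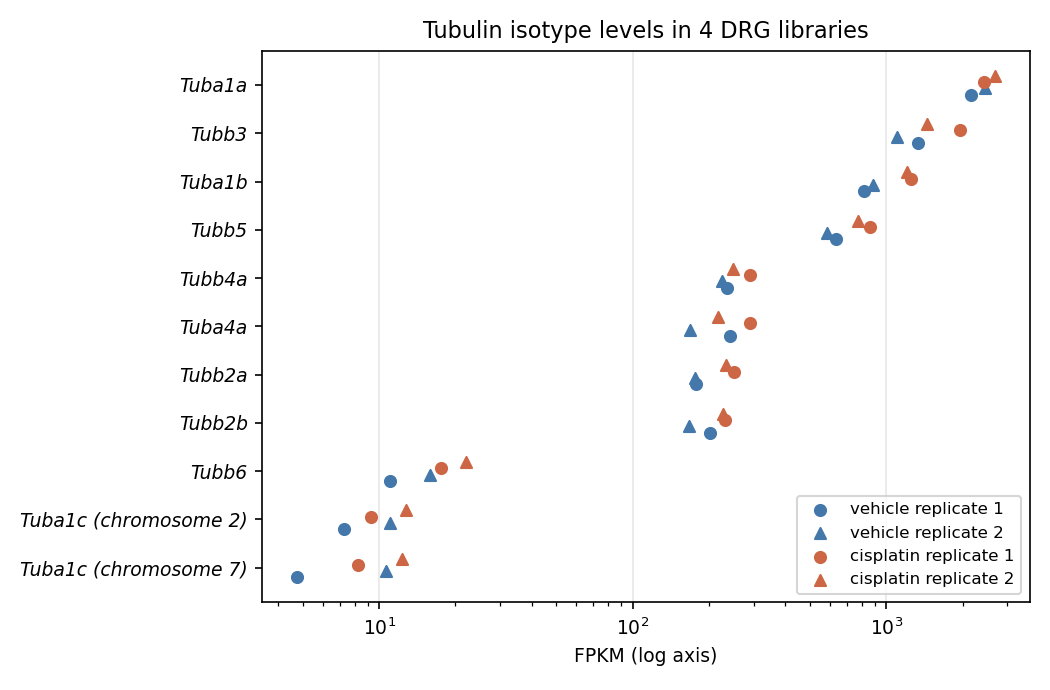
Level of each tubulin entry in FPKM (log axis), 1 point per library, circles for replicate 1 and triangles for replicate 2, blue for vehicle and orange for cisplatin. Tuba1a, Tubb3, Tuba1b and Tubb5 stood above the 4 isotypes at 166 to 290 FPKM, and Tubb6 and both Tuba1c entries lay at or below 21.97 FPKM.

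The stretches of 250 bases in front of the start of the 4 highest isotypes are shown because these genes made up most of the tubulin RNA. They are RefSeq promoters on the GRCr8 build, a different build from that of the deposited coordinates, and they lie at chr7:131995820-131996069 on the minus strand for Tuba1a, chr7:131972588-131972837 on the minus strand for Tuba1b, chr19:68365437-68365686 on the plus strand for Tubb3 and chr20:2917327-2917576 on the plus strand for Tubb5. Each is written 5′ to 3′ on the strand of its gene. Capitals mark matches on either strand to TATAA (the core of the box of that name), to CCAAT (the core of the CAAT box) and to GGGCGG (the core of the GC box).
Tuba1a: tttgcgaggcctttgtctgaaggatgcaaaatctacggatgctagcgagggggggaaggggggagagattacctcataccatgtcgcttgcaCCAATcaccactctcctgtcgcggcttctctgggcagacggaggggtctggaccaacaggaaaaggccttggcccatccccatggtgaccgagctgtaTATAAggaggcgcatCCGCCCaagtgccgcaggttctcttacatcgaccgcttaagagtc
Tuba1b: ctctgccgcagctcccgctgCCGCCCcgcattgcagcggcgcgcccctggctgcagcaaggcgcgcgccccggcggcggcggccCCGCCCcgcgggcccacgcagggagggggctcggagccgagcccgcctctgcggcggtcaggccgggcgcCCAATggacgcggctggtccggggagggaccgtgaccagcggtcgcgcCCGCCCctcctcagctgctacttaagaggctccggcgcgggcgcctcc
Tubb3: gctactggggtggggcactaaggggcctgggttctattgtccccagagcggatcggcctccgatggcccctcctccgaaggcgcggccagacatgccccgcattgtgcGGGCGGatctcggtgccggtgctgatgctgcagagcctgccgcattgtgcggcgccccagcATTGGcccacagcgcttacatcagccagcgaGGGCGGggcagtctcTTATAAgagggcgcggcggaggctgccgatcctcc
Tubb5: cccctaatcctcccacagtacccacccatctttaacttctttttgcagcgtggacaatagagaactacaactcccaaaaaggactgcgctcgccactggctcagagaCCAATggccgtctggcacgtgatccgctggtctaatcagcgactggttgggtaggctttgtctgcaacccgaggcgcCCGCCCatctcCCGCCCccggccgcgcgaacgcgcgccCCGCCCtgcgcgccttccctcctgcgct
Tuba1a carried TATAA 60 bases before its start and CCAAT 158 bases before it. Tubb3 carried TATAA on both strands in 1 overlapping run 35 bases before its start, whereas Tuba1b and Tubb5 had none and carried 3 GC box cores each. All 10 names had a promoter in the RefSeq table. Among the 10, TATAA was found in 5, CCAAT in 7 and GGGCGG in 8, and no match of one motif overlapped a match of another. Over all 33469 windows of this length the shares were 23.97% for TATAA, 34.0% for CCAAT and 30.5% for GGGCGG. Such a match is a description of letters and not a site of binding.

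The comparison of cisplatin-treated with vehicle-treated rats asked whether the level of each isotype differed between the groups. None of the 11 entries passed the test, edgeR's quasi-likelihood test with Benjamini-Hochberg adjustment over all genes tested, which required both an adjusted p under 0.05 and at least a 1.5-fold difference. Over all protein-coding genes the same rule called 1 of 14719, or 0.00679%. At an unadjusted p under 0.05, 545 genes (3.7%) were higher after cisplatin, and 0 of the 11 entries were among them. DESeq2 called 126 of 18025 genes (0.699%) in either direction and none of the entries, of which 1 had an unadjusted p under 0.05. All 11 fold changes were nonetheless above 1, from 1.11-fold for Tuba1a to 1.46-fold for Tubb6, with a median log2 fold change of 0.41 against -0.01 over all genes tested. In 7 of the 11 both cisplatin-treated libraries lay above both vehicle-treated libraries, which held for 20.6% of all genes tested, and in none did both lie below, which held for 21.2%. The other 4 overlapped between the groups. Of 12 neuron markers, 4 lay above and none below, against 20.6% and 21.2% of all genes tested, with a median log2 fold change of 0.30. Their summed level overlapped between the groups. Their part in the tubulin differences was not tested beyond the ratio given further on.

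Among the alpha isotypes, Tuba1b showed the clearest gap between the groups. Its level was 1341 and 1474 CPM in the vehicle-treated libraries and 2053 and 1974 CPM in the cisplatin-treated libraries. The groups did not overlap, and the lower cisplatin-treated library exceeded the higher vehicle-treated library by more than either group spread. The edgeR log2 fold change was 0.52 with a standard error of 0.30 and an adjusted p of 0.605.

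Tuba1a, the more abundant neuronal isotype, was closer between the groups. It measured 3549 and 4081 CPM with vehicle and 4018 and 4426 CPM with cisplatin, so that the groups overlapped after TMM scaling. By library size alone they did not. Its edgeR log2 fold change was 0.15 with a standard error of 0.38 and an adjusted p of 0.912. Tuba4a, which encodes an alpha tubulin that ends without the usual tyrosine, measured 358 and 252 CPM with vehicle and 429 and 321 CPM with cisplatin. Here replicate 1 was the higher library of each group and the groups overlapped, with a log2 fold change of 0.30 and an edgeR adjusted p of 0.747. That value rested on single libraries, being 0.068 without vehicle replicate 2, 0.082 without cisplatin replicate 1 and 0.58 without vehicle replicate 1. Tuba1c on chromosome 7 was counted 186 and 331 times with vehicle and 329 and 454 times with cisplatin, and Tuba1c on chromosome 2 was counted 251 and 303 times with vehicle and 324 and 412 times with cisplatin. For both entries vehicle replicate 1 was the lowest library, and without it their log2 fold changes were -0.050 and -0.015 in place of 0.41 and 0.25. Reads from the 2 entries may be split between them, since how reads with several matches were counted is not given in the sources used here.

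After TMM scaling, all 6 beta isotypes had both cisplatin-treated libraries above both vehicle-treated libraries. By library size alone Tubb3, Tubb2b and Tubb4a overlapped between the groups. Tubb3 measured 2443 and 2032 CPM with vehicle and 3583 and 2637 CPM with cisplatin. The gap between the groups was narrow for Tubb3, because cisplatin replicate 2 stood only a little above vehicle replicate 1, and the 2 cisplatin-treated libraries differed by more than that gap. Its edgeR log2 fold change was 0.47 with a standard error of 0.37 and an adjusted p of 0.689, and it was 0.25 without cisplatin replicate 1 and 0.68 without cisplatin replicate 2.

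Tubb2a and Tubb5 were more even within the groups. Tubb2a, a beta isotype abundant in neurons, measured 491 CPM in each vehicle-treated library and 693 and 640 CPM in the cisplatin-treated libraries. Its gap between groups was larger than the spread of either, with an edgeR log2 fold change of 0.44, a standard error of 0.24 and an adjusted p of 0.579. Tubb5 measured 1397 and 1303 CPM with vehicle and 1908 and 1708 CPM with cisplatin. The groups were again apart, at a log2 fold change of 0.42 with a standard error of 0.30 and an edgeR adjusted p of 0.659.

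Tubb2b, which migrating and growing neurons use, measured 370 and 309 CPM with vehicle and 427 and 417 CPM with cisplatin (log2 fold change 0.31, edgeR adjusted p of 0.671). Tubb4a, an isotype of neurons and myelinating glia, measured 515 and 498 CPM with vehicle and 637 and 542 CPM with cisplatin (log2 fold change 0.22, edgeR adjusted p of 0.781). Tubb6 was rare, at 495 and 566 counts (19.8 and 28.8 CPM) with vehicle and 796 and 924 counts (31.3 and 39.3 CPM) with cisplatin. Its log2 fold change was 0.54 with a standard error of 0.26 and an edgeR adjusted p of 0.555, and it was 0.31 without vehicle replicate 1 and 0.84 without vehicle replicate 2. Its cisplatin-treated libraries lay above the vehicle-treated ones by less than the difference within either group.

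**Figure D2:**
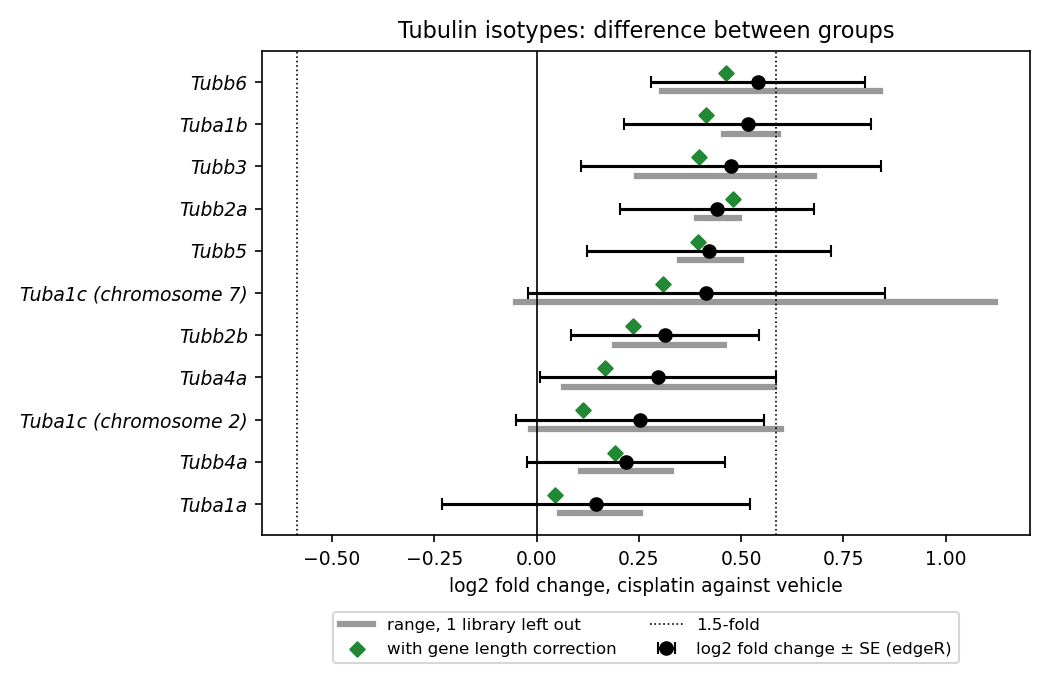
log2 fold change of each tubulin entry, cisplatin against vehicle, with its standard error (black, edgeR), the value after gene length correction (green diamond) and the range when each library was left out (grey bar). Every point lay between 0 and the dotted line at 1.5-fold, and the grey bars of both Tuba1c entries crossed 0.

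The share of genes above was also taken under other scalings and with libraries left out, since depth and composition differed between libraries. By library size alone 5 of the 11 entries lay above, against 14.9% of all genes tested. On that scale Tubb3, Tubb2b and Tubb4a overlapped, whereas Tuba1a lay above. By DESeq2 size factors 7 lay above, against 21% of all genes tested. Without vehicle replicate 1, 8 of 11 lay above, against 35.8% of all genes, and without cisplatin replicate 1, 10 of 11 did, against 31.9%. With 1 library left out the condition is easier to meet, for all genes too, so these counts do not check the 7 of 11. Shorter genes tended to have higher fold changes across all genes tested (Spearman's rho of -0.36 across 14719 genes, which are not independent replicates), and 10 of the 11 entries were shorter than the median tested gene of 2371 bases. After gene length correction all 11 log2 fold changes were still above 0, with a median of 0.31 and a range of 0.05 to 0.48. A fit with the replicate number as a block called 494 genes (3.36%) higher and 1038 lower, 10.4% of genes in all, and none of the entries; with the block and the length correction together 6.54% of genes were called, and again none of the entries.

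The isotypes named here were also summed by family, which is less affected by reads shared between near-identical isotypes. The alpha sum reached 5266 and 5839 CPM with vehicle and 6526 and 6757 CPM with cisplatin. Both cisplatin-treated libraries lay above both vehicle-treated libraries, at 1.20-fold. The beta sum, which leaves out Tubb4b, was 5236 and 4662 CPM with vehicle and 7279 and 5984 CPM with cisplatin, at 1.34-fold. With every protein-coding gene annotated to the family, the log2 differences were 0.26 for alpha and 0.41 for beta. An exact two-sided permutation test gave p = 0.33 for each sum, the smallest that 2 libraries against 2 can give. By library size alone the summed beta groups overlapped, with an exact p of 0.667. The ratio of alpha to beta FPKM over the isotypes named here was 1.24 and 1.55 with vehicle and 1.10 and 1.40 with cisplatin. In both groups replicate 2 had the higher ratio, and the groups overlapped (log2 difference of -0.16, exact permutation p = 0.667). The difference in the ratio turned on single libraries, being 0.003 without vehicle replicate 2 and 0.012 without cisplatin replicate 1 on the log2 scale.

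Within the alpha family, Tuba1a held 66.7% and 69.4% of the summed FPKM with vehicle and 61.0% and 64.98% with cisplatin. Tuba1b held 25.4% and 25.2% with vehicle and 31.3% and 29.1% with cisplatin. The share of Tuba1a was thus different by -5.10 percentage points and that of Tuba1b by 4.95 points, both without overlap between the groups. Shares of a family sum to the whole and these isotypes held most of it, so their differences were not independent. Without cisplatin replicate 1 the difference for Tuba1a was -3.09 points. Tuba4a held 4.78% to 7.52% and the Tuba1c entries together 0.374% to 0.616%, and both overlapped. Within the 6 beta isotypes, Tubb3 held 51.5% and 48.5% with vehicle and 54.2% and 49.0% with cisplatin, and Tubb5 between 23.9% and 26.3%, both overlapping. Tubb4a was the single beta isotype whose share did not overlap, at 9.05% and 9.90% with vehicle and 8.02% and 8.395% with cisplatin, a difference of -1.27 points that was -0.838 without vehicle replicate 2. The exact two-sided permutation p was 0.33 for each of the 3 shares that did not overlap, and 0.952 after Benjamini-Hochberg adjustment over the 10 isotypes. That p of 0.33 is also how often a random split of the libraries into equal groups leaves no overlap, and 3 of 10 is near it.

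**Figure D3:**
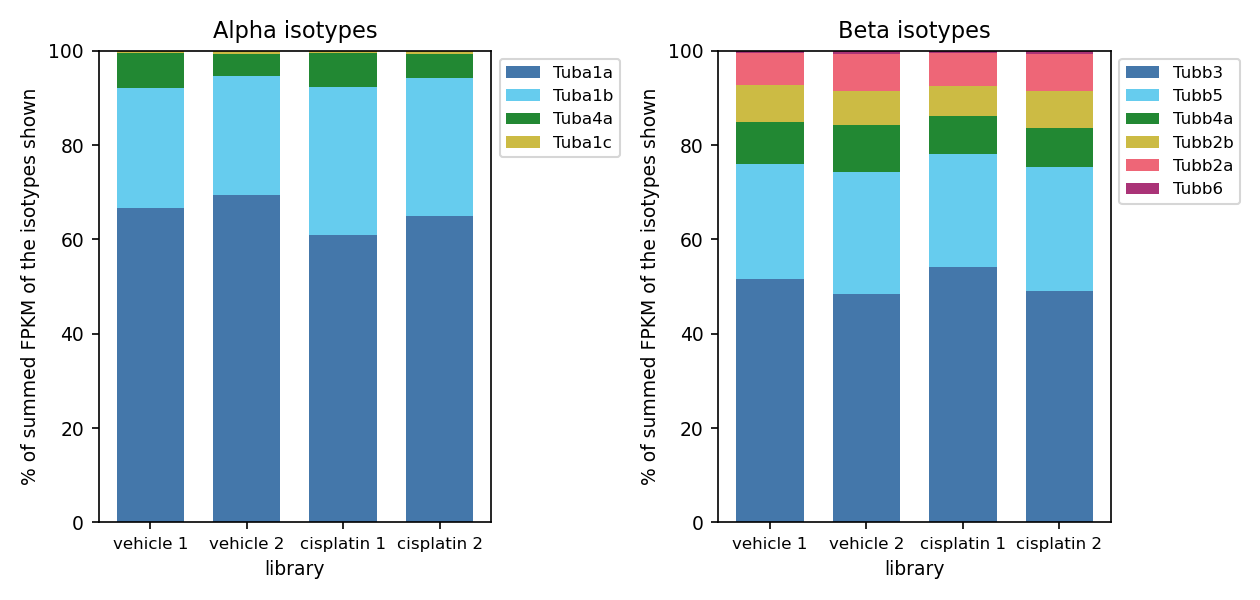
Make-up of the alpha (left) and beta (right) isotypes in each library, as the percentage of the summed FPKM of the isotypes shown. Tuba1a and Tuba1b together filled over 90% of every alpha bar, and the Tuba1b segment was taller in both cisplatin-treated libraries (31.3% and 29.1%) than in the vehicle-treated libraries (25.4% and 25.2%).

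The isotypes also differed between the 2 libraries of a group, and 9 of the 11 entries did so in the same direction in both groups. Tubb3, Tuba4a, Tubb2b, Tubb4a and Tubb5 were higher in replicate 1 of each group, with Tuba4a 0.51 and 0.42 log2 CPM lower in replicate 2 and Tubb3 0.27 and 0.44 lower. Tuba1a, Tubb6 and both Tuba1c entries were higher in replicate 2 of each group, by as much as 1.17 and 0.57 log2 CPM for Tuba1c on chromosome 7. Tuba1b and Tubb2a went in opposite directions in the 2 groups, by 0.14 and 0.001 log2 CPM with vehicle and -0.057 and -0.11 with cisplatin. The libraries that were lower in Tubb3 were also those with fewer neuron marker counts and more Schwann cell marker counts, and the part of either in these differences was not tested.

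**Figure D4:**
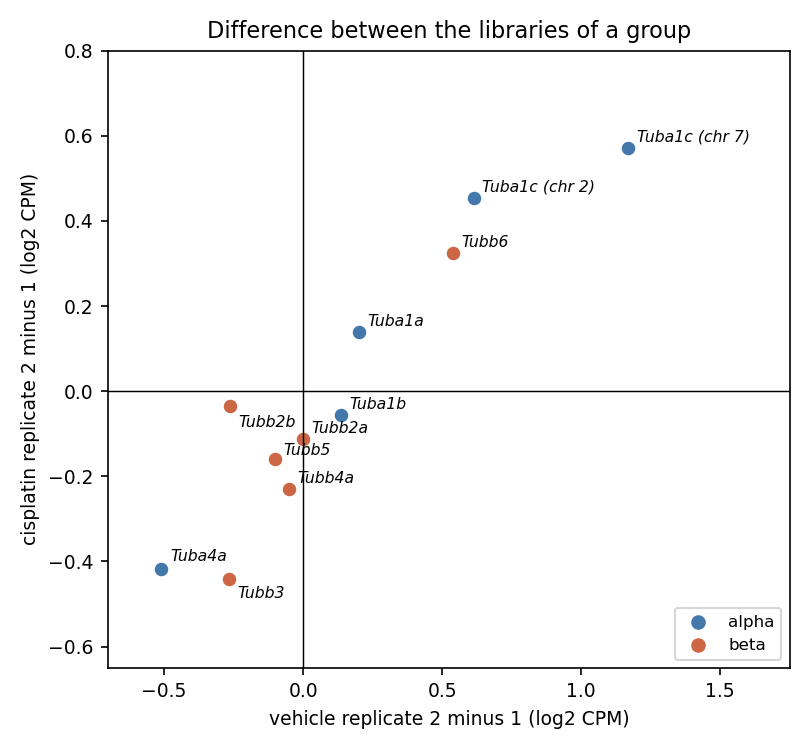
Difference between the 2 libraries of a group in log2 CPM for each tubulin entry, vehicle on the x axis and cisplatin on the y axis, blue for alpha and orange for beta. Tuba4a and Tubb3 lay at the lower left, and Tuba1a, Tubb6 and both Tuba1c entries at the upper right.

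Set against the summed neuron marker counts of the same library, an alternative chosen after the data were seen, the picture narrowed. Tubb3 came to 7.95% and 8.65% of the marker counts with vehicle and 9.43% and 9.85% with cisplatin, a log2 difference of 0.22 with an exact permutation p of 0.33, the smallest possible. Tubb3 was the only entry of the 11 whose groups did not overlap on this scale. The share of all genes that did so is not given, so this count has no background beside it. The median log2 difference over the 11 was 0.17, with 9 above 0. Tuba1a came to 11.5% and 17.4% with vehicle and 10.6% and 16.5% with cisplatin, and its difference (-0.10) and that of Tubb4a (-0.033) were below 0 on this scale. Fibroblast markers summed to 8980 and 12284 CPM with vehicle and 4388 and 8828 CPM with cisplatin, endothelial and mural markers to 285 and 368 CPM against 205 and 297 CPM with Cldn5 at 0 in every library, and macrophage markers to between 54.2 and 62.7 CPM. Satellite glia markers lay between 3331 and 4401 CPM, red cell and platelet markers between 1079 and 1249 CPM, and markers of dividing cells between 46.5 and 54.4 CPM.

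By the rule of the smallest root-mean-square difference in centred log2 CPM over the 4 libraries, the genes most like Tuba1a were Hax1 (0.008), Xrcc5 (0.009) and Nrf1 (0.013), among 9444 genes with a mean of at least 10 CPM. Those most like Tubb3 were Cpt1c (0.008), Serpini1 (0.011) and Mkks (0.011). Tuba1a and Tubb3 themselves differed by 0.31 on this measure, and Tuba4a and Tubb5 were the isotypes nearest to Tubb3, both at 0.12. With 4 libraries such likeness is a description of 4 values.

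Other genes of the microtubule system were taken from 6 lists that together named 116 genes, of which 112 were in the table and 105 entries were tested. None passed the edgeR test. Without overlap between the groups 27 (25.7%) lay above and 21 (20%) below, near the 20.6% and 21.2% of all genes tested. At an unadjusted edgeR p under 0.05, 7 of the 105 were higher and 6 lower, against 3.7% and 5.73% of all genes. Of the 7 higher, 6 were among the 24 genes of tubulin folding and dimer assembly. Among 6 other tubulins, the gamma tubulin Tubg1, which nucleates microtubules at the centrosome, measured 47.2 and 53.2 CPM with vehicle and 76.4 and 63.3 CPM with cisplatin (log2 fold change 0.48). Tubb4b measured 778 and 704 CPM with vehicle and 1049 and 888 CPM with cisplatin (log2 fold change 0.39). Both of these lay above, the other 4 overlapped (among them Tubg2 at 12.7 and 8.69 CPM against 21.3 and 12.6 CPM), and the median of the 6 was 0.43.

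The 24 genes of tubulin folding and dimer assembly had 17 above (70.8%, against 20.6% of all genes tested) and 1 below, with a median log2 fold change of 0.26 that was 0.14 after gene length correction. All 6 subunits of prefoldin, the chaperone that hands unfolded tubulin to the chaperonin CCT, lay above with log2 fold changes of 0.38 to 0.58 and edgeR adjusted p values of 0.522 to 0.551; prefoldin was singled out after its values were seen. Pfdn2, for example, measured 41.2 and 42.4 CPM with vehicle and 63.7 and 61.1 CPM with cisplatin, and Pfdn4 34.5 and 36.3 CPM against 53.2 and 50.6 CPM. After gene length correction the log2 fold changes of the 6 prefoldin subunits were 0.10 to 0.49, with Pfdn4 going from 0.55 to 0.30. Of the 8 CCT subunits 5 lay above, with log2 fold changes of -0.01 to 0.27. Tbcel, which encodes a protein that destabilises tubulin dimers, was the 1 gene of the list below, at 10.8 and 10.3 CPM with vehicle and 4.999 and 3.70 CPM with cisplatin.

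Enzymes that modify tubulin had 3 above and 3 below among 20 tested, 15% each against 20.6% and 21.2% of all genes, with a median log2 fold change of -0.08. Vash1, a carboxypeptidase that removes the terminal tyrosine of alpha tubulin, measured 41.2 and 44.5 CPM with vehicle and 17.4 and 21.97 CPM with cisplatin. Its groups were well apart, at a log2 fold change of -1.12 with a standard error of 0.21. It missed the edgeR threshold (adjusted p of 0.522) and was the only gene of the 6 lists that DESeq2 called (adjusted p of 0.024). Over all genes DESeq2 called 0.699%. Ttll4, a glutamylase, measured 6.59 and 6.30 CPM with vehicle and 2.83 and 3.70 CPM with cisplatin. On the other side Tpgs2, a subunit of the tubulin polyglutamylase complex, measured 69.3 and 75.6 CPM with vehicle and 120 and 91.9 CPM with cisplatin, and its log2 fold change of 0.55 was 0.32 after gene length correction. Ttl, the ligase that restores the tyrosine, overlapped between the groups at 114 and 53.1 CPM with vehicle and 73.8 and 38.7 CPM with cisplatin.

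Lattice-binding and bundling proteins had 1 above and 7 below (31.8%) among 22, and proteins of the plus and minus ends had 2 above and 5 below (26.3%) among 19, against 21.2% of all genes below. Their median log2 fold changes of -0.15 and -0.19 were 0.086 and 0.0015 after gene length correction. Their genes were long, with median lengths of 6143 and 4791 bases. Nav1 measured 55.3 and 52.2 CPM with vehicle and 25.9 and 30.2 CPM with cisplatin, and its log2 fold change of -0.94 was -0.64 after gene length correction. Map2, which binds microtubules in dendrites and cell bodies, measured 70.7 and 30.6 CPM with vehicle and 21.8 and 21.5 CPM with cisplatin. Among the proteins of microtubule ends, Clasp1, which stabilises growing ends, measured 82.2 and 43.4 CPM with vehicle and 39.6 and 31.2 CPM with cisplatin. Clip3 had more than 1 entry. That called in the blocked fits overlapped, at 11.7 and 37.2 CPM with vehicle and 7.68 and 13.4 CPM with cisplatin. Another entry measured 9.19 and 1.17 CPM with vehicle and 1.69 and 1.83 CPM with cisplatin, and overlapped too. Tppp3, a tubulin polymerisation-promoting protein, was the 1 lattice-binding gene above, at 769 and 572 CPM with vehicle and 1238 and 832 CPM with cisplatin (log2 fold change 0.63, and 0.41 after gene length correction). Macf1 and Tacc2, 24116 and 9795 bases long, had log2 fold changes of -0.51 and -0.35 that turned to 0.12 and 0.046 after the correction, and that of Clip1 went from -0.32 to -0.034. Stathmins, which sequester tubulin dimers, and severing enzymes had 2 above and 5 below (35.7%, against 21.2% of all genes) among 14, with a median of 0.042. Fign, a severing enzyme, measured 4.95 and 9.25 CPM with vehicle and 1.93 and 4.04 CPM with cisplatin, and its relative Fignl1 was below too with at most 44 counts in a library. Stmn2 measured 1672 and 1347 CPM with vehicle and 2642 and 1789 CPM with cisplatin (log2 fold change 0.55, edgeR adjusted p of 0.635). It is named here because it is the stathmin of injured and growing axons, outside the rule for named genes. The other stathmins of the list overlapped between the groups.

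**Figure D5:**
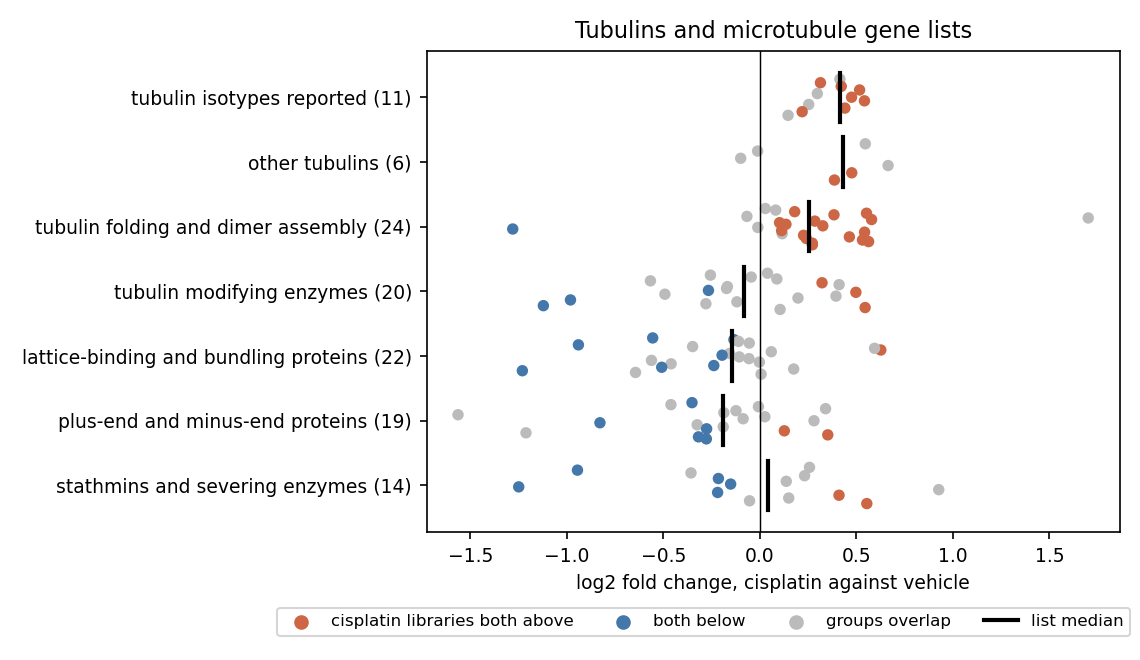
log2 fold change, cisplatin against vehicle, of the 11 tubulin entries and of each microtubule list (number tested in brackets), 1 point per entry, orange where both cisplatin-treated libraries lay above, blue where both lay below and grey where the groups overlapped, with the list median as a black bar. The medians were 0.41 for the tubulin entries, 0.26 for folding and -0.19 for the plus-end and minus-end proteins.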

How the data were processed

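Lumbar DRG RNA of 2 vehicle-treated and 2 cisplatin-treated rats was poly(A)-selected and sequenced as paired ends. The authors mapped reads to Ensembl Rnor_6.0, and the submitters' processing notes name HISAT2 2.0.5, StringTie 1.3.3b and featureCounts 1.5.0-p3; strand and multi-match settings are not given in the sources used here. The deposited counts are whole reads per gene without normalisation. The deposited FPKM values equal count divided by gene length and 1 constant per library.

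Groups and replicate numbers came from the labels. Nothing states that the libraries come from separate cohorts or litters, so p-values measure the spread between these libraries. Counts were tested with edgeR 4.0.16 (TMM, filterByExpr, glmQLFit, glmQLFTest) in R 4.3.3, adjusted over 14719 genes. DESeq2 1.42.0 and limma 3.58.1 on log2(FPKM + 1) and log2(FPKM + 0.1), which understates the change of low genes, were alternatives. Single values were compared with exact permutation tests. The gene length correction used a lowess curve (span 0.3) per library as an offset. The edgeR, DESeq2 and length-corrected fits were tested on simulated counts. Those had larger fold changes than any tubulin entry, less spread between libraries than these data and no replicate effect. The blocked fits, limma and the permutation tests were not tested this way. A library floor of 3 counts was 0.117 to 0.140 CPM of the raw library total, for counting error only. Columns left unused numbered 0.

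The tubulin genes and all gene lists were chosen with earlier results of these data known. Named genes were the 10 tubulins and, in each list, those called in any fit plus the 3 with the smallest p among groups without overlap; likeness was taken to the highest alpha and beta isotype. Prefoldin and Stmn2 were named outside that rule. Protein sequences were not used here, and the result of 1 listed gene is not reported here.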

Additional observations from a re-analysis of the deposited data

Results flagged for a closer look

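An unnamed locus outside the protein-coding comparison carried reads in every library. It was assembled from these reads, lies at chr16:69938414-69941650 on Rnor_6.0 and is described in the deposited table as alpha-1B tubulin-like. It was counted 218 and 117 times in the vehicle-treated and 279 and 231 times in the cisplatin-treated libraries, or 8.71 and 5.94 CPM against 10.98 and 9.82 CPM. It drew attention because the lower cisplatin-treated value (9.82 CPM) exceeded both vehicle-treated values in data that no comparison used. The same held for 20.6% of all protein-coding genes tested, so it does not set this locus apart. The difference was not tested.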

How the results depend on the processing

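No tubulin entry was called under any alternative, and all 11 log2 fold changes stayed above 0 under each scaling, filter, test and correction run on them. The exceptions were -0.050 and -0.015 for Tuba1c on chromosomes 7 and 2 without vehicle replicate 1 (1.12 and 0.60 without vehicle replicate 2), and -0.10 and -0.033 for Tuba1a and Tubb4a relative to neuron markers. The causes were not tested, beyond vehicle replicate 1 being the lowest library for both Tuba1c entries. The titles number the rats 1 and 2 in each group, but same-numbered libraries are different rats, and with 2 pairs the number was not taken as a pairing. The differences of replicate 2 from replicate 1 in the 2 groups correlated across genes (r = 0.44, rho = 0.57, 14719 genes, which are not independent replicates). With the replicate number as a block, 494 genes were called higher and 1038 lower, and the edgeR adjusted p was 0.032 for Tuba1b, 0.033 for Tubb2a and 0.027 for Tubb6, each under 1.5-fold. With the length correction added they were 0.070, 0.031 and 0.066. Genes called in the 6 microtubule lists numbered 0 by edgeR without the block and 1 by DESeq2, which called 0.699% of all genes. The blocked fit called 10 of them (2 higher and 8 lower, 9.52% of those tested against 10.4% of all genes). The blocked fit corrected for length called 7 (6.67% against 6.54%). The cause was not tested. Means of the same-numbered differences were 0.26 for summed alpha and 0.42 for summed beta. Leaving out each library in turn gave 0.19 to 0.33 for summed alpha and 0.28 to 0.56 for summed beta on the log2 scale. For the ratio of alpha to beta it gave -0.33 to 0.012 on the same scale. With a library left out, 8 to 10 of 11 entries lay above, against 31.9% to 37.7% of all genes tested. That condition is easier to meet with fewer libraries. With 2 libraries a group, an exact test of a single value could not go below 0.33.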

Other observations

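Reads were also counted at other places annotated as tubulin without a protein-coding entry. A second assembled alpha tubulin-like locus at chr5:161924530-161925631 on Rnor_6.0 measured 6.31 and 5.33 CPM with vehicle and 5.67 and 5.70 CPM with cisplatin, with groups that overlapped. The 5 processed pseudogenes annotated as alpha or beta tubulin in the deposited table held at most 6 counts in any library. In the RefSeq gene table of the GRCr8 build, 20 pseudogenes were named after the 10 genes, 14 of them after Tuba1b and 5 after Tuba1a.

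Tbcb, a cofactor that binds alpha tubulin during folding, was counted 40 and 44 times in the vehicle-treated libraries and 52 and 245 times in the cisplatin-treated libraries. The high value came from cisplatin replicate 2 alone. Tbcb is named here after its values were seen.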
